A study of Mus musculus with 2 samples.

Results

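The 40 genes described here act in the cell division cycle. The list goes by gene names and not by a measured value, and all 40 were found by symbol among the 33904 genes of the deposited matrices. Of these, 23 act in G2 phase and mitosis (the G2/M members, Mki67 and Top2a to Ube2c and Ttk) and 17 act at the G1/S transition and in DNA replication (the G1/S members, Mcm2 and Pcna to Hells and Uhrf1). They were counted in each cell type of mouse dorsal skin, defined by marker genes, in 1 control library (Ctrl) and 1 library of an atopic dermatitis (AD) model, to see which cell types held dividing cells in each.

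The mice of both libraries were female C57BL/6J, 7 weeks old, and their back hair was removed with Nair the day before the first application. Ctrl mice received the ethanol vehicle alone, and AD mice received MC903 (calcipotriol, an analogue of vitamin D that causes an AD-like dermatitis) at 4.5 nmol per application. Treatment was given daily for 10 days, and dorsal skin was taken on day 10. The number of mice pooled in a library is not given in the sources used here, and each group has 1 library, so no test was made between the groups. Intervals are given at 95% and hold counting error alone, by Clopper-Pearson's exact method for shares of cells and Poisson's for summed UMIs. A difference below is one between these libraries, and the treatment, the animals and the sample handling cannot be told apart in it.

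A cell that commits to divide passes from G1 into S phase when cyclin E and its kinase release the E2F transcription factors, whose targets include the MCM helicase, PCNA and the enzymes that make deoxynucleotides. The genes of G2 phase and mitosis follow later, under B-MYB, FOXM1 and the MuvB core, and in resting cells the DREAM complex holds many of them down. In skin, basal keratinocytes renew the epidermis, suprabasal cells have left the cycle, and the matrix at the base of a growing hair follicle is among the fastest dividing tissues of the body. Depilation is known to start a new growth phase of the follicle, and calcipotriol is known to act on keratinocyte growth and differentiation.

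The lists differ in the letters of their promoters, and the sequences below are shown because their levels also moved apart in the data. RefSeq gave a promoter (250 bases before to 50 after the start, GRCm38.p6) for 33 of the 40 members, namely 19 of the G2/M and 14 of the G1/S members. Searched on both strands, the CHR motif (TTTGAA or TTCGAA), which the MuvB core binds through LIN54, was found in the promoters of 15 of 19 G2/M members, of 3 of 14 G1/S members, and in 19.2% of all 32851 promoters. The CCAAT box, which NF-Y binds, was found in 17 of 19 G2/M members, in 10 of 14 G1/S members and in 37.4% of all promoters. E2F motifs (TTTGGCGC, TTTCCCGC, TTTCGCGC or TTTGCCGC) went the other way, with 1 of 19 G2/M members, 7 of 14 G1/S members and 2.26% of all promoters. A match is a description of the letters and does not show that a factor binds there. The next lines give 150 bases upstream of the start, 5′ to 3′, of G2/M members that hold a CHR motif in this stretch, cut so that no annotated exon is included, with CHR motifs and CCAAT boxes, read on either strand, in capitals.
Mki67 (chr7:135716380-135716529, minus strand): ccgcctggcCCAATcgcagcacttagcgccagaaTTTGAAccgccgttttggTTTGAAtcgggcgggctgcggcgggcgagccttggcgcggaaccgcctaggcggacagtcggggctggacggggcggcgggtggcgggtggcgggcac
Top2a (chr11:99024190-99024339, minus strand): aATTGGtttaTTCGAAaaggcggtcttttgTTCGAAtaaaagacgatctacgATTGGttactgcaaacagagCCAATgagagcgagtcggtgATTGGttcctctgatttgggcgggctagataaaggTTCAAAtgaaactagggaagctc
Cdk1 (chr10:69352939-69353088, minus strand): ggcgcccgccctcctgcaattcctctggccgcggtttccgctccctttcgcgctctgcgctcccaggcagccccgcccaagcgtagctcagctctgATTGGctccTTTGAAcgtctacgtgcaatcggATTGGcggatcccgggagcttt
Cdc20 (chr4:118437353-118437502, minus strand): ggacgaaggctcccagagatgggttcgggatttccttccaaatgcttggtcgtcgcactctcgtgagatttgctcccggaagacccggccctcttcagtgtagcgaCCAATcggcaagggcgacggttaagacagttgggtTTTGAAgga
Kif11 (chr19:37376232-37376381, plus strand): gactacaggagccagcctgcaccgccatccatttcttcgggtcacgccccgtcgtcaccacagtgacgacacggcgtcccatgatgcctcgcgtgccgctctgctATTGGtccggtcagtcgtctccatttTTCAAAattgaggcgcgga
In Cdk1 a CCAAT box began at position -80 and a CHR motif at -71, counted from the start of transcription. Another CHR motif of Cdk1, at -15, lies outside the printed stretch. The stretch of Mki67 held 2 CHR motifs, and that of Top2a held 3 CHR motifs and 4 CCAAT boxes. The next lines give the same stretch of G1/S members with an E2F motif, which is in capitals here together with CCAAT boxes.
Mcm5 (chr8:75109359-75109508, plus strand): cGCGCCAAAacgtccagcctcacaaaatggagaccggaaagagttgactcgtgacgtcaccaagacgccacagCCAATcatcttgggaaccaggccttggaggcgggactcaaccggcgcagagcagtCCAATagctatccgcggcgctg
Mcm6 (chr1:128359706-128359855, minus strand): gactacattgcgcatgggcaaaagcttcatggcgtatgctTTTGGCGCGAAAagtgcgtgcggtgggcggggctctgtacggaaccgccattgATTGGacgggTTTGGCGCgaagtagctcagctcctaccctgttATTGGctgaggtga
Cdc6 (chr11:98908001-98908150, plus strand): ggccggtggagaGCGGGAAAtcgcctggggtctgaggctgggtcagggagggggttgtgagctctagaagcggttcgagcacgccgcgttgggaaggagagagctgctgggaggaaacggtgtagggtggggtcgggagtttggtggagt
In Mcm6 the first capital run holds 2 overlapping E2F matches, 1 on each strand.

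Each value in the deposited matrices is a number of UMIs, or distinct transcript molecules, of 1 gene in 1 cell barcode. After the study's own filter (200 to 6000 genes, at most 10% mitochondrial UMIs), 11399 Ctrl cells with a median of 7813 UMIs and 8179 AD cells with a median of 6330 UMIs were kept. The 2 libraries shared 29 cell barcodes. Cells were sorted into types by a marker gate, and the names below stand for that gate. Krt5 had a UMI in 96.5% of Ctrl and 94.6% of AD basal keratinocytes, Dcn in 94.5% and 99.7% of fibroblasts, Csf1r in 82.4% and 84.7% of macrophages, Cd3e in 68.1% and 63.9% of T cells, and Pecam1 in 96.6% and 95.9% of vessel cells. In the hair matrix gate Msx2 had a UMI in 81.1% of cells and Krt35 in 20.9%. Markers were also found outside their own gate. Among cells that were not fibroblasts, Col1a1 had a UMI in 62.7% in Ctrl and 10.6% in AD (98.1% and 66.6% of fibroblasts), Dcn in 54.5% and 44.5%, and Pdgfra in 9.60% and 22.6%, so that the order of the libraries differed by marker. Krt10 had a UMI in 44.6% and 6.40% of cells that were not suprabasal. A total of 832 Ctrl and 260 AD cells lay between types, and 648 and 1269 had no type.

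The members made up 163377 UMIs in Ctrl and 27722 in AD, and the difference lay mainly in the G2/M members (96179 and 6255 UMIs; G1/S members 67198 and 21467). Cells with 3 or more G2/M UMIs, called dividing cells below, were 2173 of 11399 in Ctrl (19.1%) and 379 of 8179 in AD (4.63%). The name stands for this cut alone. It also takes in cells of types whose share is read as background below, such as AD fibroblasts, and deep cells pass it more easily. In Ctrl they were fibroblasts (21.8% of them), hair matrix cells (18.2%), cells between types (18.0%) and basal keratinocytes (12.8%), with T cells at 6.17%. In AD T cells were the most frequent (31.4%), followed by basal keratinocytes (17.2%), cells between types (15.0%) and macrophages (10.0%), and fibroblasts made up 7.39%. The first place in AD depended on the gene limit of the filter: with cells of more than 6000 genes kept, 134 AD basal keratinocytes and 121 AD T cells were over the cut, while in Ctrl fibroblasts (555) stayed ahead of hair matrix (424). The cut is a point on a continuous scale, and for that reason the cells near it are given with each type.

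**Figure D1:**
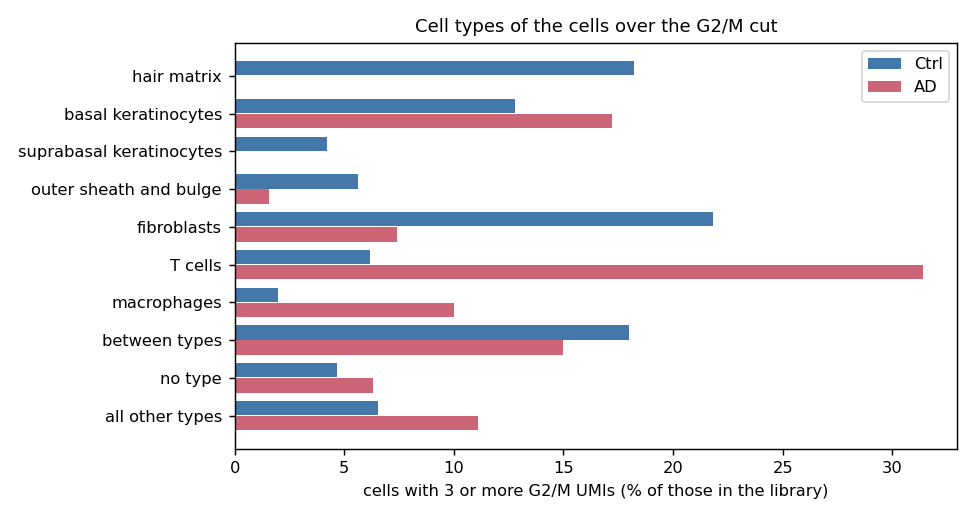
Bars give the cell types of the cells with 3 or more G2/M UMIs, as a percent of such cells in the library (2173 in Ctrl, blue, and 379 in AD, red). Fibroblasts and hair matrix lead in Ctrl at 21.8% and 18.2%, and T cells lead in AD at 31.4%, where basal keratinocytes (134 cells) pass T cells (121 cells) once the limit of 6000 genes is lifted.

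Types whose mature cells divide little were taken as background. The part of free RNA, mixed droplets and dividing cells in their level was not tested. Neutrophils, mast cells and skeletal muscle were planned for this use, and pericytes, Schwann cells and adipocytes were not. In pericytes and vascular smooth muscle, 0.769% of 260 Ctrl cells (median 5252 UMIs) and 1.80% of 167 AD cells (7762 UMIs) had 3 or more G2/M UMIs. The 2 Ctrl cells over the cut each had 10 or more. In Schwann cells it was 1.55% of 193 Ctrl cells (2488 UMIs) and 0 of 85 AD cells (3062 UMIs), and 0 of 49 AD neutrophils (3293 UMIs) reached it, which allows up to 6.12% by a limit of 3 counts (exact upper bound 7.25%). In 113 AD adipocytes, at a median of 17751 UMIs, the share was 0.885%. Mast cells, also meant as background, held 14 of 136 cells over the cut in Ctrl (10.3%, 1652 UMIs), 8 of them with 10 or more G2/M UMIs, against 0 of 48 in AD (2726 UMIs), so they were not used as background. They were thus left out by the same measure that the background is used for. Background below means the types that were kept, and Ctrl mast cells, at a summed G2/M level of 1031 CPM, stood above these. The skeletal muscle gate held 1 Ctrl cell and could not be used. A count of 3 UMIs over all 40 members is a much looser cut: it was reached by 37.7% of Ctrl and 53.9% of AD pericytes, in which the G1/S members summed to 336 and 320 CPM (UMIs scaled to a total of 1e6 UMIs of the type). Which types divide is therefore described from the G2/M members.

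**Figure D2:**
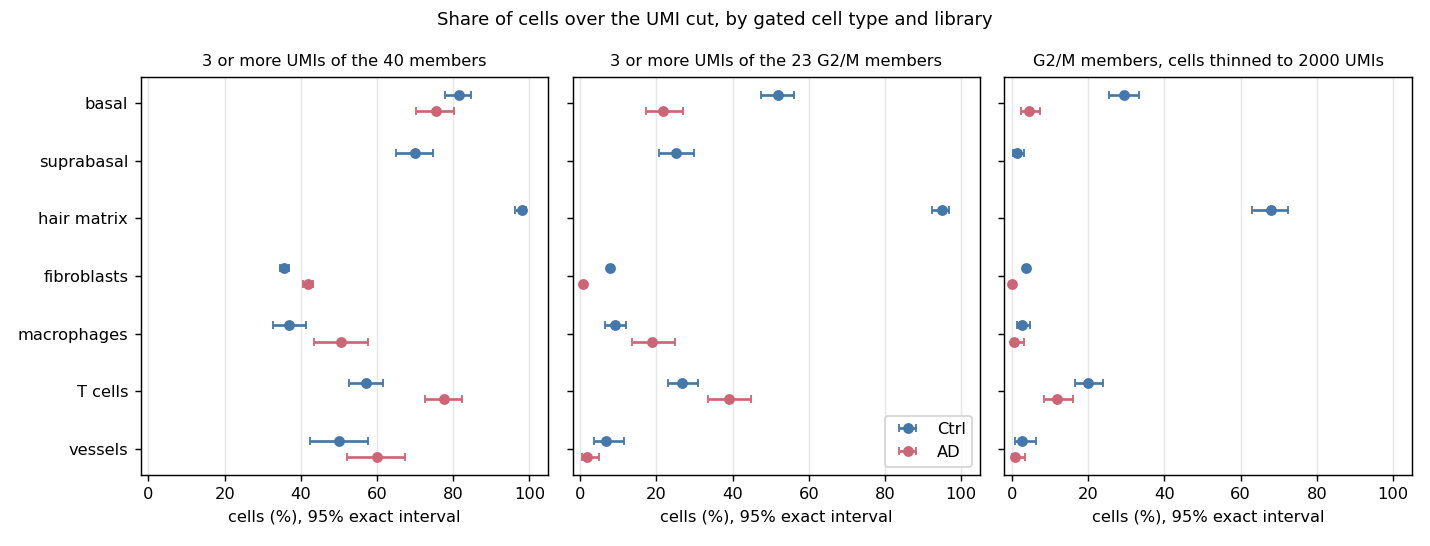
Points give the share of cells with 3 or more UMIs of all 40 members (left), of the 23 G2/M members (middle) and of the G2/M members after each cell was thinned to 2000 UMIs (right), by cell type, with 95% exact intervals (Ctrl blue, AD red). The hair matrix stands highest in every panel, and AD fibroblasts lie near 0 for the G2/M members. In T cells the order of the libraries turns after thinning, with overlapping intervals in a second draw without the gene limit. The thinned macrophage shares rest on 10 of 389 Ctrl and 1 of 171 AD cells, with overlapping intervals, and no order is read from them.

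Hair matrix cells divided in Ctrl and were not found in AD. The gate for the matrix and inner root sheath held 417 Ctrl cells and 0 AD cells. Of the Ctrl cells, 98.1% had 3 or more member UMIs and 95% (92.4 to 96.9%) had 3 or more G2/M UMIs, with 332 of 417 at 10 or more. Near the cut were 4 cells with 2 and 23 cells with 3 or 4 UMIs. After thinning to 2000 UMIs the share with 3 or more G2/M UMIs was 67.9%. The summed level was 4262 CPM for the G2/M members and 2344 CPM for the G1/S members. In these cells Mki67, the classic marker of cycling cells, stood at 1038 CPM, Top2a, which untangles chromosomes, at 763 CPM, Cenpf, a kinetochore protein, at 325 CPM, and Pcna, the sliding clamp of the polymerases, at 432 CPM. These cells lay in clusters 17 (251 cells, led by Krt28, Krt35 and Krt25) and 21 (154 cells, led by histone genes such as H2ac8 and H3c3), with dividing shares of 93.6% and 99.4%. Histone genes were not left out of the clustering, so the share of cluster 21 is not independent of how it was formed. Outside the cell cycle lists, the leading genes of their dividing cells were Kif15, Aspm and Pou3f1, at 121, 98.9 and 97.6 CPM, each with 0 UMIs in the 21 other cells. No ratio between the libraries can be given for this type.

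Basal keratinocytes divided in both libraries, and the size of the difference between them depended on the gene limit of the filter and on how the type was set. The gate held 539 Ctrl and 298 AD cells at nearly equal median depth (12110 and 12230 UMIs). The share with 3 or more member UMIs was 81.4% in Ctrl (77.9 to 84.6%) and 75.5% in AD (70.2 to 80.3%), and the share with 3 or more G2/M UMIs was 51.8% (47.5 to 56.1%) and 21.8% (17.3 to 26.9%). In Ctrl 54 cells had 2 and 51 cells had 3 or 4 G2/M UMIs, and in AD 32 and 20. After thinning, the G2/M shares were 29.3% (25.4 to 33.4%) and 4.33% (2.26 to 7.45%). The G2/M members summed to 2128 CPM in Ctrl and 224 CPM in AD, a log2 ratio of AD over Ctrl of -3.25 (-3.34 to -3.15), and the G1/S members to 1109 and 535 CPM (log2 ratio -1.05, -1.12 to -0.98). However, the limit of 6000 genes took out 75 AD and 47 Ctrl basal cells, of which 69 and 43 were dividing. With these cells the G2/M shares became 55.3% and 35.9%, the thinned shares 30.6% and 11.9%, and the levels 2177 and 867 CPM. The log2 ratio of the G2/M members was then -1.33 and that of the G1/S members -0.28. AD stayed lower on each of these measures. With the type taken from Leiden clusters in place of the gate, 49.6% of the AD basal cells were over the G2/M cut. The Ctrl share stayed within its interval of 47.5 to 56.1%, so the shares of the libraries came close. The log2 ratio of the G2/M members was then -2.59.

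The basal gate mixed cells of different clusters. In cluster 15 (led by Krt14, Fcgbp and Krt5), the dividing share was 57.7% in Ctrl (307 cells) and 49.2% in AD (118 cells), and the intervals overlapped (51.9 to 63.2% and 39.8 to 58.5%), but the AD cells were deeper (22663 against 13269 UMIs), and the levels of the G2/M members were 2474 and 345 CPM. Thinned, the shares of cluster 15 were 33.0% and 10.3%. In cluster 9 (led by Sox9 and Krt15, with Lhx2, genes also used here as outer sheath and bulge markers), the share was 29.5% of 146 Ctrl cells and 4.09% of 171 AD cells, at 1042 and 47.3 CPM. A further 33 and 20 Ctrl cells of the gate lay in clusters 17 and 21, which held most of the hair matrix gate, with 78.8% and 90% over the cut, and no AD cell did. The dividing AD basal cells had a median of 3.91 G2/M UMIs per 10000 UMIs, against 18.1 in Ctrl. They were also deeper than the other basal cells of their library (medians of 25118 against 9172 UMIs in AD and 15184 against 8599 UMIs in Ctrl). In AD the gene that led the dividing cells was Cxcl9, a chemokine induced by interferon (39.7 CPM against 0.355 CPM in the other basal cells), followed by Stfa3 (226 against 14.6 CPM), the histone gene H3c3 (39.1 against 1.78 CPM) and Gbp2 (41.7 against 2.84 CPM). Cxcl3, Stfa1 and Fabp5, a fatty acid binding protein of keratinocytes (1123 against 211 CPM), were also among the first 10. The Cxcl9 value rests on 62 UMIs, and the number of cells that held them is not given here. The part of mixed droplets in these genes was not tested. In Ctrl the leading genes included mitotic genes such as Aspm (110 against 0.812 CPM).

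Suprabasal keratinocytes were low in G2/M transcripts, and their place against the background depended on the type set beside them. The gate held 368 Ctrl cells, at a median of 20042 UMIs, and 5 AD cells, too few to compare. In Ctrl, 70.1% had 3 or more member UMIs and 25.0% (20.7 to 29.8%) had 3 or more G2/M UMIs, but only 8 of these 92 cells had 10 or more, and 51 had 3 or 4. After thinning the share was 1.18% (0.322 to 2.99%), beside 0.405% in pericytes and 0.741% in Schwann cells of the same library. The G2/M members summed to 118 CPM, beside 86.7 CPM in pericytes and 175 CPM in Schwann cells. AD adipocytes, the background type of like depth (17751 UMIs), stood at 0.885% unthinned and at 6.81 CPM. Both values were below those of the Ctrl suprabasal cells, but they come from the other library. Ttk gave 153 of the 890 G2/M UMIs, at 20.3 CPM and in 22.3% of cells, beside 18.7 CPM in Ctrl basal keratinocytes. Mki67 stood at 24.9 CPM, beside 504 CPM in Ctrl basal keratinocytes. The 22 cells of the gate in cluster 15, a cluster led by basal markers, stood at 670 CPM, and the 339 cells of cluster 14 at 101 CPM. Il1b, a cytokine of immune cells (92.1 against 5.96 CPM), was among the leading genes of the suprabasal cells over the cut, and the part that mixed droplets have in this was not tested.

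Fibroblasts held dividing cells in Ctrl and almost none in AD. The gate held 6055 Ctrl cells (median 8574 UMIs) and 4704 AD cells (6997 UMIs). With 3 or more UMIs of all members the shares were 35.6% (34.4 to 36.8%) and 41.9% (40.5 to 43.3%), higher in AD, but with 3 or more G2/M UMIs they were 7.81% (7.15 to 8.52%) and 0.595% (0.396 to 0.859%). Of the 473 Ctrl cells over the cut, 232 had 10 or more G2/M UMIs and 147 had 3 or 4, whereas of the 28 AD cells 0 had 10 or more and 23 had 3 or 4. The AD share was not above that of AD pericytes, and is read as background. After thinning, the shares were 3.57% and 0.0226%, the latter 1 of 4429 cells. The G2/M members summed to 340 CPM and 22.1 CPM, 15.4-fold lower in AD (log2 ratio -3.95, -4.05 to -3.85), while the G1/S members summed to 328 and 295 CPM (log2 ratio -0.15, -0.19 to -0.12). In fibroblasts that were not dividing, the G1/S members summed to 205 CPM in Ctrl and 295 CPM in AD. The 28 AD cells over the cut also carried more RNA of other cell types than the remaining AD fibroblasts, namely Cd74 (476 against 16.1 CPM), Il1b (286 against 8.26 CPM) and Krt14 (211 against 12.4 CPM), and the part of mixed droplets in them was not tested.

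Most Ctrl and AD fibroblasts lay in different clusters, so the comparison is also one between clusters. In Ctrl, cluster 33 (61 cells, led by H3c3 and H1f5) was entirely over the cut, cluster 4 (led by Lrrc15, Col11a1 and Acan) had 23.3% of 807 cells over it, and cluster 6 (led by F5, Rspo3 and Hhip) 11.4% of 603 cells. Clusters 0, 3 and 18, which held 2247, 1427 and 456 Ctrl fibroblasts, had 2.00%, 1.40% and 1.10%. The AD fibroblasts of clusters 1, 2, 5 and 11 (1615, 1312, 765 and 546 cells) had 0.372%, 0.534%, 0.654% and 0.549%. The clusters were formed without the listed cell cycle genes, but histone genes were not left out. H3c3 also led the dividing Ctrl fibroblasts (269 against 1.33 CPM in the others). The share of cluster 33 is therefore not independent of how it was formed. Clusters 4 and 6 had higher shares than the large Ctrl clusters, which stood near the background level. A further 37 Ctrl cells of the gate lay in cluster 17 of the hair matrix, and 30 of them were over the cut. Without the clusters led by markers of another type, the shares were 6.97% in Ctrl and 0.559% in AD.

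Macrophages carried G2/M transcripts at a like summed level in both libraries, and few of them stayed over the cut after thinning. The gate held 477 Ctrl cells (median 4507 UMIs) and 202 AD cells (7259 UMIs). The share with 3 or more member UMIs was 36.9% (32.6 to 41.4%) in Ctrl and 50.5% (43.4 to 57.6%) in AD, and with 3 or more G2/M UMIs it was 9.01% (6.60 to 12.0%) and 18.8% (13.7 to 24.9%). The Ctrl share was 5.99% without the cluster led by another type and 5.74% with Leiden clusters as types. The G2/M members, however, summed to 266 CPM (245 to 288) and 231 CPM (209 to 256), and after thinning the shares were 2.57% (10 of 389 cells) and 0.585% (1 of 171 cells). The higher AD share went with the greater depth of the AD cells, and no order of the libraries is read from it. Both unthinned shares and both levels were above those of pericytes and Schwann cells of the same library, although the Ctrl Schwann cells came near in level (175 CPM). After thinning, the intervals overlapped those of pericytes, with 1.24 to 4.68% against 0.0102 to 2.23% in Ctrl and 0.0148 to 3.22% against 0 to 2.31% in AD, so that a share above background was not detectable at that depth. Only 6 Ctrl and 5 AD macrophages had 10 or more G2/M UMIs, while 42 Ctrl and 30 AD cells had 2 and 29 and 19 had 3 or 4. In cluster 10 (led by Pf4 and C1qa) the levels were 174 and 176 CPM, and in cluster 12, led by MHC class II genes and Cd207, a Langerhans cell gene, 527 and 487 CPM. The 4 AD macrophages over the gene limit would raise the AD level to 372 CPM, so that the log2 ratio moves from -0.20 to 0.48. With them, a second draw gave thinned shares of 2.57% in Ctrl and 2.29% in AD (4 of 175 cells).

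Macrophages over the cut, called dividing here, differed from the other macrophages of their library in subset genes, but they were also deeper (medians of 6917 against 4138 UMIs in Ctrl and 14515 against 5527 UMIs in AD) and lay more often in cluster 12, which has a Langerhans cell marker and none of macrophages among its leading genes. Of its 93 Ctrl and 20 AD macrophages, 20 and 10 were over the cut, against 22 of 381 and 28 of 182 in cluster 10. The contrast below is therefore also one between clusters. In AD, H2-Ab1, an MHC class II chain, had a UMI in 73.7% (56.9 to 86.6%) of dividing cells and 32.3% (25.2 to 40.1%) of the others, and its level was 3569 against 1369 CPM. In Ctrl its level was 5728 against 4348 CPM, and the intervals of its shares overlapped (77.9 to 97.4% and 74.4 to 82.3%). Cd163 and Folr2, often used as genes of resident macrophages, had lower levels in the dividing cells, with 156 against 485 CPM and 25.0 against 100 CPM in AD, and 322 against 722 CPM and 429 against 689 CPM in Ctrl. Ccr2, the receptor of recruited monocytes, stood at 138 against 99.1 CPM in AD and at 322 against 246 CPM in Ctrl. It had a UMI in 74.4% (58.8 to 86.5%) of dividing Ctrl cells and 30.9% (26.6 to 35.5%) of the others. In AD these shares were 34.2% and 14.0%, with overlapping intervals (19.6 to 51.4% and 9.10 to 20.3%). In both libraries the dividing cells were thus higher in MHC class II and lower in these resident genes by level, while the intervals of their shares of cells with Cd163 overlapped (9.55 to 37.3% and 21.9 to 36.2% in AD). In both libraries genes of other cell types were among those that led the dividing cells. In Ctrl the first were the keratinocyte genes Krt79 (393 against 39.9 CPM) and Krt17 (242 against 25.1 CPM). In AD the first was Mucl1, a gene of glands (168 CPM against 0 UMIs in the other macrophages), followed by Cxcl9 (141 against 1.85 CPM), Itgax (103 against 17.6 CPM) and Cxcl13 (601 against 131 CPM), with Lox, Ccn1 and Timp1, genes also made by stromal cells, in the first 10. The part of mixed droplets in these was not tested.

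T cells divided in both libraries. The gate held 501 Ctrl cells at a median of 3133 UMIs and 305 AD cells at 5936 UMIs. The share with 3 or more member UMIs was 57.1% (52.6 to 61.5%) and 77.7% (72.6 to 82.3%), and that with 3 or more G2/M UMIs was 26.7% (22.9 to 30.9%) and 39.0% (33.5 to 44.7%). With 10 or more G2/M UMIs it was 8.38% and 8.52%, and near the cut were 82 Ctrl and 58 AD cells with 2 and 61 and 55 with 3 or 4 UMIs. The level of the G2/M members was higher in Ctrl, 1540 CPM (1485 to 1597) against 958 CPM (917 to 1000), with a log2 ratio of -0.68, and the G1/S members stood at 833 and 749 CPM. After thinning the shares were 20% (16.4 to 23.9%) and 11.7% (8.29 to 15.9%). With the gene limit lifted, which brought in 2 AD and 0 Ctrl T cells, a second draw gave 17.3% of 451 Ctrl and 13.0% of 301 AD cells, with intervals that overlapped (13.9 to 21.1% and 9.38 to 17.3%), and the AD level was 1111 CPM. The share and the level thus point in opposite directions, and no order of the libraries is read from the share. By either measure T cells were far above pericytes, Schwann cells and adipocytes in both libraries.

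The dividing T cells were spread over the T cell clusters. In Ctrl the share was 29.0% in cluster 13 (led by Ctla4, Tnfrsf4 and Icos), 25.8% in cluster 16 (led by Il17a and Il7r), 25.0% in cluster 20 (led by Gzmc and Gzma) and 28.0% in cluster 29 (led by Trdc and Cd3g). In AD it was 44.4%, 26.9%, 39.1% and 30%, and the level of the G2/M members was lower than in Ctrl in each of the 4 clusters, for example 1071 against 1925 CPM in cluster 13. Clusters 16 and 20 held 1 marker each of innate lymphoid and natural killer cells among their leading genes and none of T cells. Cd4 had a UMI in 46.2% (37.0 to 55.6%) of dividing AD T cells and in 32.3% (25.6 to 39.5%) of the others, and in 24.6% and 17.4% in Ctrl. Its level was nearly equal in dividing and other cells, 152 and 136 CPM in AD and 84.0 and 81.5 CPM in Ctrl. Foxp3, the factor of regulatory T cells, was at 41.4 and 64.0 CPM in AD, and Trdc, the constant chain of the delta receptor, at 135 and 144 CPM in AD and at 654 and 761 CPM in Ctrl. No subset gene of the list set the dividing T cells apart by level by more than 2-fold.

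Vessel cells held few dividing cells. The gate held 178 Ctrl cells (median 5296 UMIs) and 172 AD cells (8475 UMIs), with 50% and 59.9% at 3 or more member UMIs. At 3 or more G2/M UMIs the share was 6.74% in Ctrl (12 cells, 3.53 to 11.5%) and 1.74% in AD (3 cells, 0.361 to 5.01%), beside 1.80% in AD pericytes. In Ctrl 7 cells had 2 and 6 cells had 3 or 4 G2/M UMIs, and in AD 11 and 2. The G2/M members summed to 420 and 79.8 CPM (log2 ratio -2.39, -2.68 to -2.12), and the G1/S members to 552 and 466 CPM. The Ctrl level rested on 4 cells with 10 or more G2/M UMIs. After thinning the shares were 2.50% (4 of 160) and 0.637% (1 of 157). In cluster 8, led by lymphatic markers such as Ccl21a and Prox1, the share was 3.53% of 85 Ctrl and 0 of 67 AD cells, and in cluster 23 (led by Selp and Sele) 8.70% of 92 and 2.88% of 104 cells.

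**Figure D3:**
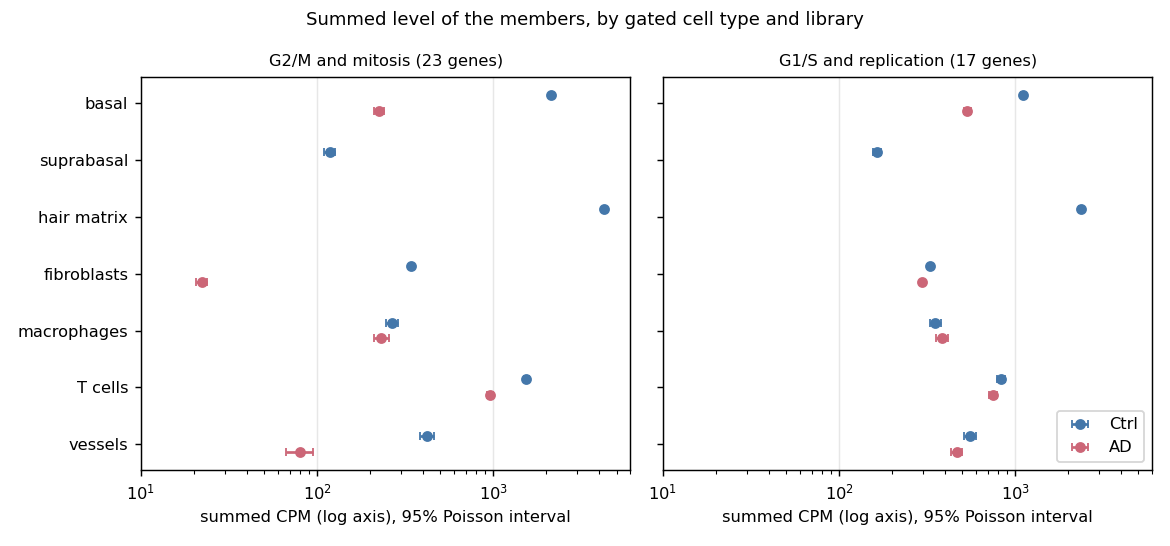
Points give the summed CPM of the 23 G2/M members (left) and the 17 G1/S members (right) by cell type, on log axes, with 95% Poisson intervals (Ctrl blue, AD red). The libraries lie 15.4-fold apart for the G2/M members in fibroblasts, at 340 and 22.1 CPM, and close together for the G1/S members, at 328 and 295 CPM.

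Single members were compared where a gene had 20 or more UMIs over both libraries in the type, and a gene was counted as lower or higher when its level differed by 2-fold or more. In basal keratinocytes 33 of 40 members were lower in AD and 0 higher, beside 13.1% of all 12368 genes counted as lower and 5.67% as higher. All 23 G2/M members and 10 of 17 G1/S members were among them. Without the gene limit 15 of 40 members were lower, 13 of 23 G2/M and 2 of 17 G1/S, and 0 higher, beside 12.5% and 4.87% of all genes. In fibroblasts 33 of 40 members were lower and 0 higher, beside 23.1% and 9.84% of 16524 genes, again with all 23 G2/M and 10 of 17 G1/S members, and without the gene limit 34 of 40 were lower and 0 higher (23.4% and 9.43% of all genes). In vessels 16 of the 23 members with enough UMIs were lower and 0 higher (11.3% and 4.45% of all genes), and without the gene limit 19 of 27 were lower and 0 higher (11.2% and 4.25%). Only 11 of the 23 G2/M members reached 20 UMIs in vessels, mostly through their Ctrl counts, so nothing is read from the direction of those that were counted.

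In T cells few members were past 2-fold. In macrophages members were past it in both directions, with the gene limit each at a larger share than all genes. In macrophages 6 of 28 were lower and 5 higher, beside 11.4% and 6.60% of all genes. Without the gene limit 2 of 32 were lower and 10 higher, beside 11.3% and 7.40%. Only 13 of the 23 G2/M members had enough UMIs to be counted in macrophages with the gene limit, 5 as lower and 1 as higher. The 5 counted as lower had most of their UMIs in Ctrl (Nusap1 19 and 2, Ube2c 24 and 4). Nothing is therefore read from the direction of these 5. In T cells 2 of 39 were lower (Mki67 and Cenpf) and 0 higher, beside 10.6% and 4.22%, and without the limit 0 of 40 were lower and 3 higher, beside 10.5% and 4.47%. Lifting the limit brought in 2 AD T cells and 4 AD macrophages, and no Ctrl cell of either type. The median log2 ratio over the members counted was -2.57 in basal keratinocytes, -2.92 in fibroblasts, -1.33 in vessels, -0.06 in macrophages and -0.36 in T cells.

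**Figure D4:**
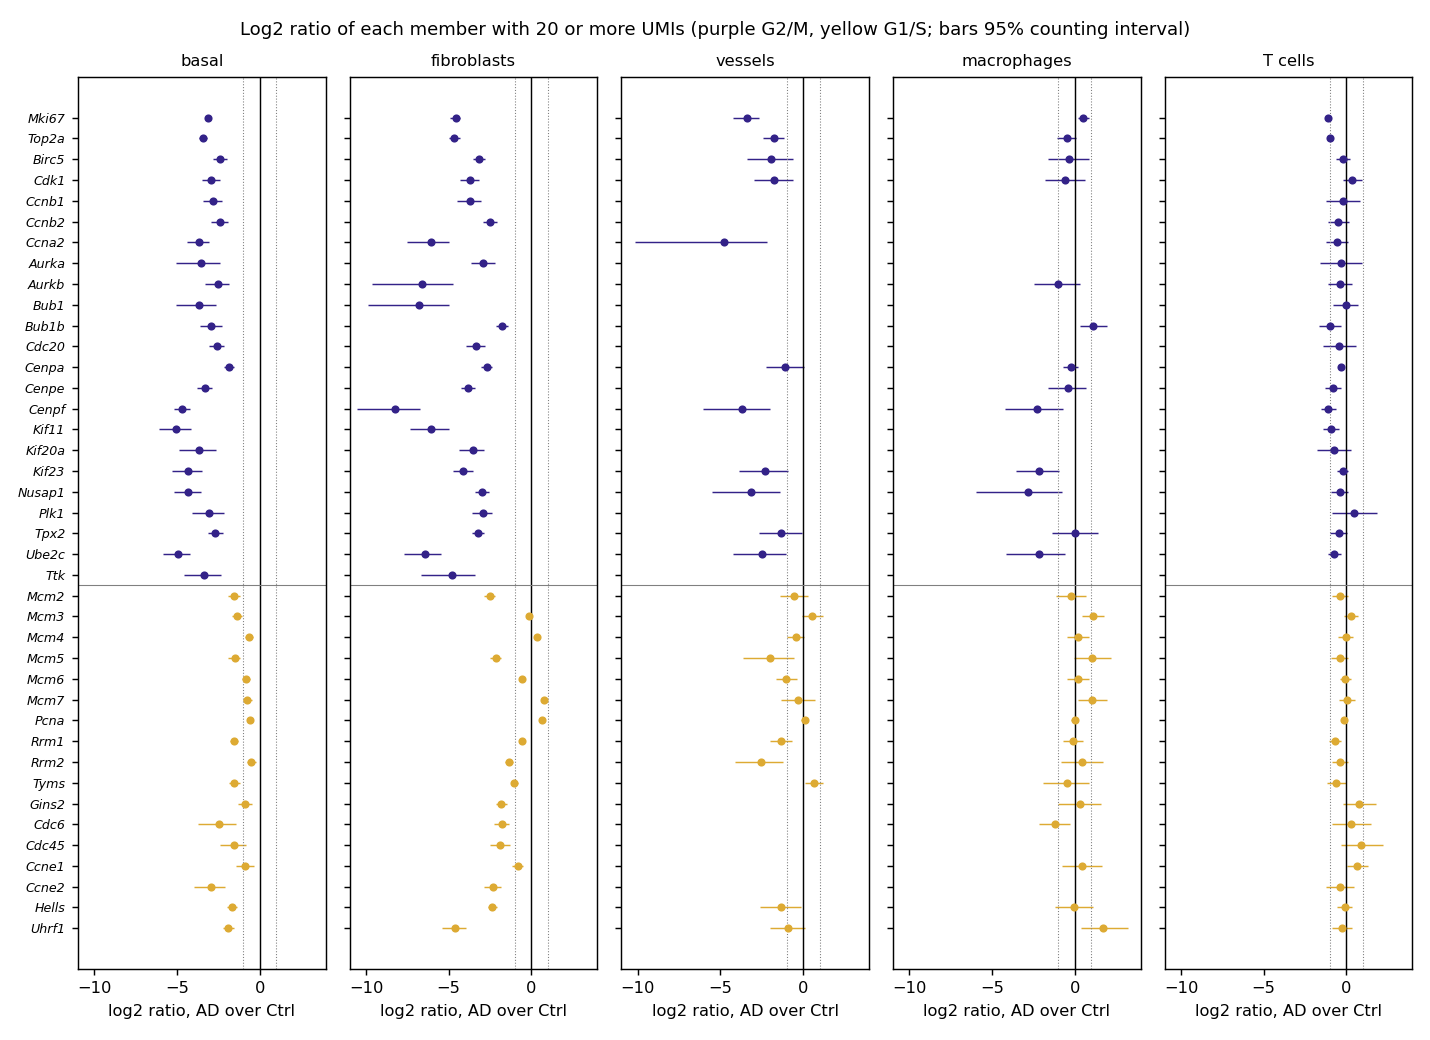
Points give the log2 ratio of AD over Ctrl of each member with 20 or more UMIs and at least 1 UMI in each library, by cell type, with 95% counting intervals (purple G2/M, yellow G1/S; dotted lines at 2-fold). In basal keratinocytes and fibroblasts every G2/M member lies left of -1. In T cells 37 of 39 members lie within 2-fold, with medians below 0 (-0.36 for all members and -0.44 for the G2/M members).

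The cyclins and their kinase carry the cell through G2 and into mitosis. Ccnb1, cyclin B1, stood in basal keratinocytes at 49.2 CPM (Ctrl) and 6.86 CPM (AD), at 6.12 and 0.462 CPM in fibroblasts and at 9.57 and 8.36 CPM in T cells. Cdk1, its kinase, stood at 57.5 and 7.54 CPM in basal keratinocytes, at 9.69 and 0.734 CPM in fibroblasts and at 23.9 and 30.2 CPM in T cells. Ccna2, cyclin A2, which acts from S phase on, stood at 11.1 CPM in Ctrl fibroblasts and 0.163 CPM in AD fibroblasts (627 and 6 UMIs, log2 ratio -6.09). Without the gene limit the basal log2 ratios were -0.84 for Ccnb1, -0.30 for Cdk1 and -1.11 for Ccna2, so the width of the gap in basal keratinocytes depended on that limit. The T cell values of Ccnb1 and Cdk1 lay within counting error of each other, with log2 ratios of -0.19 (-1.22 to 0.83) and 0.34 (-0.23 to 0.92).

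The mitotic kinases and the spindle checkpoint were low genes throughout. Aurkb, the kinase of the chromosomal passenger complex, had 301 UMIs in Ctrl and 2 UMIs in AD fibroblasts, and Bub1, a checkpoint kinase, 348 and 2 UMIs. Bub1b, which makes the checkpoint protein BUBR1, was the G2/M member nearest to its Ctrl level in AD fibroblasts (6.21 and 1.82 CPM, log2 ratio -1.77), and it was counted as higher in AD macrophages (9.65 and 20.8 CPM, log2 ratio 1.11, 0.30 to 1.95). Plk1 was at 21.0 and 2.51 CPM in basal keratinocytes and at 5.25 and 0.680 CPM in fibroblasts, Aurka at 16.3 and 1.37 CPM in basal keratinocytes, and Ttk, the MPS1 kinase, at 18.7 and 1.83 CPM. Without the gene limit the basal log2 ratios were -0.68 for Plk1, -0.89 for Aurka and -1.43 for Ttk.

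Among the kinetochore and spindle genes was the member with the widest gap in fibroblasts. Cenpf had 1421 UMIs in Ctrl and 3 in AD fibroblasts (log2 ratio -8.27, -10.55 to -6.72), and stood at 237 and 9.14 CPM in basal keratinocytes and at 63.8 and 29.7 CPM in T cells. Cenpa, the centromeric histone H3, showed the narrowest gap of the G2/M members in basal keratinocytes (93.8 and 26.3 CPM, log2 ratio -1.83, or -0.49 without the gene limit) and was high in T cells of both libraries (223 and 178 CPM). Kif11, the kinesin that separates the spindle poles, stood at 75.2 and 2.29 CPM in basal keratinocytes, 12.6 and 0.190 CPM in fibroblasts and 51.6 and 27.0 CPM in T cells. Without the gene limit the basal log2 ratios were -2.75 for Cenpf and -1.50 for Kif11. Kif23, of the central spindle, was among the genes counted as lower in AD macrophages (18.4 and 4.17 CPM). So were Nusap1 (8.34 and 1.19 CPM) and Ube2c, the ubiquitin enzyme of the anaphase-promoting complex (10.5 and 2.38 CPM). Their AD levels rested on 7, 2 and 4 UMIs, and nothing is read from their direction, for the reason given above. With the 4 AD macrophages over the gene limit, Ube2c and Cenpf turned to log2 ratios of 0.51 and 0.34. Mki67 itself was not lower in AD macrophages, with 62.3 CPM in Ctrl and 88.7 CPM in AD (log2 ratio 0.51, 0.17 to 0.85).

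The replication genes did not move as a block. In AD fibroblasts Pcna (91.6 and 141 CPM, log2 ratio 0.62), Mcm7 (17.5 and 29.5 CPM, 0.75) and Mcm4 (28.8 and 36.5 CPM, 0.34) were above Ctrl, and Mcm3 was near it (17.3 and 15.3 CPM, -0.17). Other subunits of the same helicase were lower, with Mcm2 at 13.3 and 2.31 CPM (log2 ratio -2.53) and Mcm5 at 10.8 and 2.42 CPM (-2.16), and Mcm6 between these at 26.2 and 17.9 CPM (-0.55). The MCM subunits form 1 ring, and in AD fibroblasts the transcripts of its subunits were unequal in their difference from Ctrl. Uhrf1, which carries DNA methylation through replication, showed the widest gap of the G1/S members in fibroblasts (12.0 and 0.489 CPM, log2 ratio -4.62), followed by Mcm2, Hells, a chromatin remodeller (19.1 and 3.72 CPM, -2.36), and Ccne2, cyclin E2 (5.08 and 1.01 CPM, -2.34).

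The enzymes of deoxynucleotide supply differed among themselves as well. In fibroblasts Rrm1, the large subunit of ribonucleotide reductase, was at 36.7 and 24.6 CPM (log2 ratio -0.58), Rrm2, its small subunit that is made in S phase, at 13.6 and 5.30 CPM (-1.35), and Tyms, thymidylate synthase, at 15.4 and 7.59 CPM (-1.03). In basal keratinocytes Rrm2 stood closer to Ctrl than Rrm1, at 52.0 and 36.6 CPM against 106 and 36.3 CPM. The initiation factors Cdc6 (10.3 and 1.83 CPM), Cdc45 (12.2 and 4.11 CPM) and Gins2 (26.6 and 14.6 CPM) were all lower in AD basal keratinocytes, Gins2 by less than 2-fold, and without the gene limit the log2 ratios of Cdc6 and Cdc45 were -1.27 and -0.49. In macrophages Mcm3 (14.5 and 31.5 CPM), Mcm5, Mcm7 and Uhrf1 were counted as higher in AD, but with each cell's own CPM averaged Mcm5 and Uhrf1 turned to log2 ratios of -0.24 and -0.05. Ccne1, cyclin E1, was at 17.5 and 27.9 CPM in T cells (log2 ratio 0.67, 0.03 to 1.33).

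**Figure D5:**
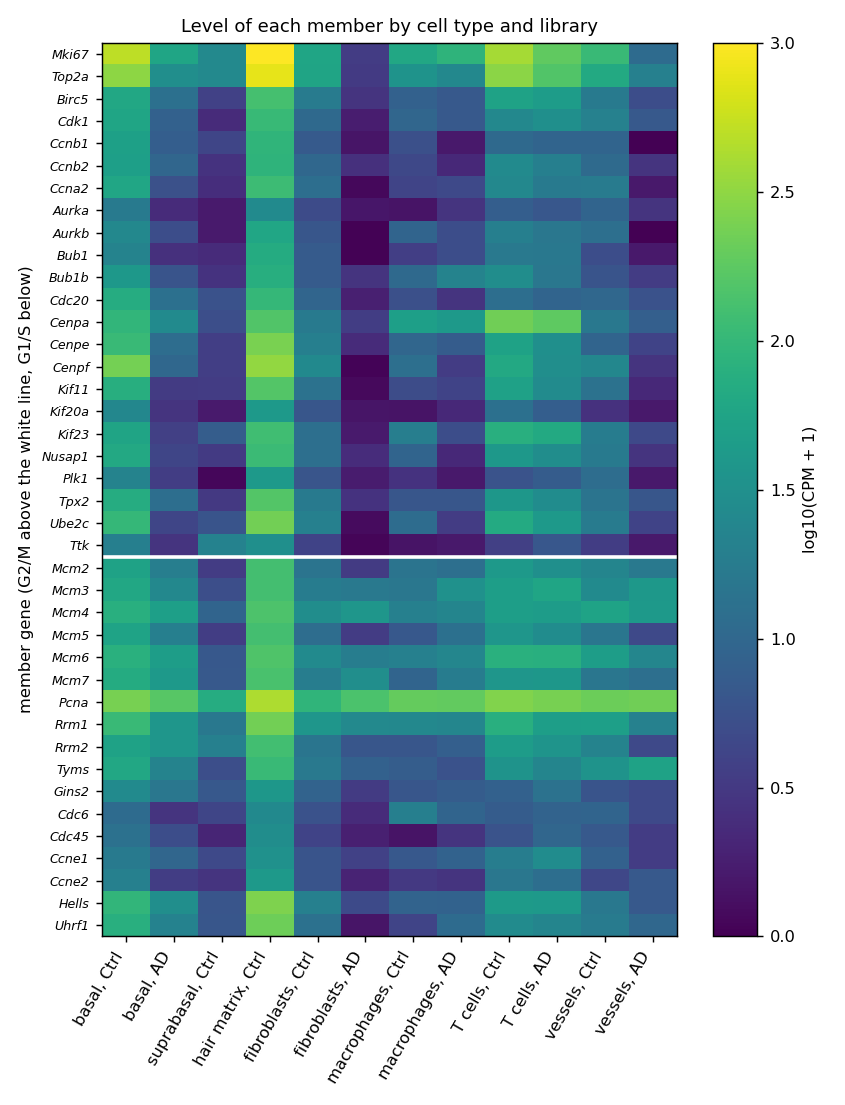
Colours give the level of each member as log10(CPM + 1) by cell type and library, with G2/M members above and G1/S members below the white line. Ctrl hair matrix is the brightest column, with Mki67 at 1038 CPM, and in AD fibroblasts the G2/M rows are dark while Pcna stays at 141 CPM.

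Cell cycle genes outside the 40 behaved much as the members did. Of 32 other mitotic genes, 28 were lower by 2-fold or more in AD basal keratinocytes and 26 in AD fibroblasts, against 4 of 31 counted in T cells and 1 of 18 in macrophages. Of 25 other replication genes, 14 were lower in AD basal keratinocytes, and 12 lower and 2 higher in AD fibroblasts. The background percentages are those given above. These genes were taken from lists of cell cycle functions, and their values, like those of the regulators that follow, were computed with the gene limit only.

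The regulators upstream of the cycle showed mixed levels. Ccnd1, cyclin D1, which takes mitogen signals into G1, was lower in AD in each of the 5 types compared: 190 and 21.9 CPM in basal keratinocytes, 100.0 and 10.2 CPM in fibroblasts, 80.7 and 19.6 CPM in macrophages, 40.4 and 7.44 CPM in T cells and 199 and 53.0 CPM in vessels. Ccnd2, cyclin D2, was near its Ctrl level in basal keratinocytes (514 and 485 CPM) and fibroblasts (149 and 167 CPM). Foxm1, a factor that drives mitotic genes, was at 20.5 and 1.37 CPM in basal keratinocytes and at 5.43 and 1.22 CPM in fibroblasts, and E2f8, an E2F of S phase, at 24.7 and 4.11 CPM and at 3.46 and 0.245 CPM. Myc, a growth factor target and transcription factor, went the other way in fibroblasts (102 and 674 CPM, log2 ratio 2.73), macrophages (23.3 and 70.8 CPM), T cells (35.6 and 76.7 CPM) and vessels (99.7 and 253 CPM), and stood at 126 and 175 CPM in basal keratinocytes. Low mitotic genes and higher Myc thus stood together in AD fibroblasts.

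Of the inhibitors, Cdkn1a, the p21 inhibitor, was above Ctrl in all 5 types, by 2-fold or more in basal keratinocytes (183 and 451 CPM, log2 ratio 1.30) and fibroblasts (266 and 798 CPM, 1.59). Its values were 424 and 650 CPM in macrophages, 225 and 314 CPM in T cells and 621 and 995 CPM in vessels. Btg2, an antiproliferative gene that p53 induces, was at 465 and 1398 CPM in fibroblasts and at 1132 and 2241 CPM in basal keratinocytes, but at 717 and 637 CPM in vessels, 596 and 624 CPM in macrophages and 668 and 760 CPM in T cells. Cdkn2d, the p19 inhibitor, was at 54.9 and 120 CPM in fibroblasts. Cdkn1b, the p27 inhibitor, differed by less than 2-fold in each of the 5 types, with log2 ratios between -0.22 in vessels and 0.39 in fibroblasts. Over the list of inhibitors, 3 were lower and 3 higher among the 11 counted in basal keratinocytes, and likewise among the 12 counted in fibroblasts, beside 13.1% and 5.67% of all genes in basal keratinocytes and 23.1% and 9.84% in fibroblasts. Those lower were Cdkn2c, Wee1 and Chek1, a checkpoint kinase (19.9 and 3.43 CPM), in basal keratinocytes, and Cdkn2a, Cdkn2b and Chek1 (4.17 and 1.33 CPM) in fibroblasts.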

How the data were processed

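Single-cell RNA-seq of dorsal skin (10x libraries, mm10) was analysed in 1 Ctrl and 1 AD library. The deposited values are raw UMI counts per gene and barcode, which the authors made with Cell Ranger. The submitters' notes name version 3.1.0 with Seurat 5.0, the matrix header names 5.0.0, and the conflict was not settled. The cell filter asked for 200 to 6000 genes and no more than 10% of UMIs from mitochondrial genes. A cell was given 1 of 24 types when at least 3 markers were detected, the scaled marker score was at least 0.15 and it exceeded the next type's by 1.25 times. Other cells stayed between types or without a type, which stood in for a doublet filter. Scrublet marked 3.47% of Ctrl cells and 0 of the AD cells, so that it had not worked in AD. UMIs were summed per type and library into CPM. For thinning, 2000 UMIs were drawn once from each cell, and shallower cells were left out. A gene was counted as lower or higher past 2-fold with 20 or more UMIs, and a count of 0 was set to a floor of 3. Any of the 40 members, the G1 cyclins, factors and inhibitors and the subset genes could be named, as could the 10 genes outside the cell cycle lists with the highest ratio of dividing over other cells among those with 50 or more UMIs. The steps were run with Python 3.11.15, numpy 2.4.6, scipy 1.17.1 and scanpy 1.11.5. Of these steps, the 2-fold call and the interval of a ratio were tested on simulated Poisson counts. The marker gate, the thinning, the shares and the motif search were not. The members and lists were chosen with earlier results of these data known.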

Additional observations from a re-analysis of the deposited data

How the results depend on the processing

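No paired analysis was possible because each group has 1 library, and for the same reason no replicate could be left out. Leaving out the clusters led by another type and the highest 5% of doublet scores, and all settings of the G2/M and G1/S sums, were chosen after seeing the data. Among the summed ratios of all, G2/M and G1/S members, 15, 26 and 19 of 40 values each stayed within the counting interval. The G2/M sums of basal keratinocytes, fibroblasts, T cells and vessels stayed lower in AD under every setting run, and that of macrophages did not. Of 282 values of single members past 2-fold, 191 stayed within the interval and 4 changed direction. In each case the cause was not tested.

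With no upper limit on genes, the log2 ratios of all, G2/M and G1/S members were -0.89, -1.33 and -0.28 in basal keratinocytes and -0.28, -0.47 and 0.03 in T cells. For all members they were -1.25 in fibroblasts, 0.33 in macrophages and -0.97 in vessels, for G1/S members -0.27 in fibroblasts and for G2/M members 0.48 in macrophages. The member shares were 80.4% in AD basal keratinocytes and 37.1% in Ctrl fibroblasts, and the G2/M shares 35.9% and 8.95%. Cenpf and Ube2c in macrophages turned to 0.34 and 0.51. Members counted as lower went from 33 to 15 of 40 in basal keratinocytes and from 2 to 0 in T cells, with 3 higher in place of 0, and in macrophages from 6 lower and 5 higher to 2 and 10. With all deposited barcodes the values were -0.92, -1.38 and -0.30 in basal keratinocytes and -0.27, -0.47 and 0.03 in T cells. They were -1.26 (all) and -0.28 (G1/S) in fibroblasts, 0.32 (all) and 0.46 (G2/M) in macrophages and -0.97 (all) in vessels.

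With Leiden clusters as types the ratios were -1.79, -2.59 and -0.81 in basal keratinocytes, -0.61, -0.81 and -0.33 in T cells, and -0.20 (all) and -0.25 (G1/S) in macrophages. The member shares were 88.5% in AD basal keratinocytes and 95.7% in hair matrix, and the G2/M shares 49.6%, 90.7% and, in Ctrl macrophages, 5.74%. Asking for 1 more marker gave a member share of 43.8% in AD fibroblasts and ratios of -0.15 (all) and -0.44 (G2/M) in macrophages. Without the clusters led by another type, the member shares were 62.7% in Ctrl T cells and 69.5% in AD vessels, and the G2/M shares 6.97% in Ctrl fibroblasts and 5.99% in Ctrl macrophages. The ratios were then -0.24, -0.50 and 0.20 in T cells, -0.12, 0.05 and -0.21 in macrophages, -1.03 (all) and -0.10 (G1/S) in fibroblasts, -1.15 (all) and -0.43 (G1/S) in vessels and -0.96 (G1/S) in basal keratinocytes.

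Without the cells called doublets, Ctrl fibroblasts had a member share of 34.4% and a G2/M share of 6.98%, and the vessel ratios were -0.53, -1.93 and -0.05. Without the highest doublet scores these shares were 34.1% and 6.72%, the vessel ratios -0.49, -1.88 and -0.01, and the fibroblast ratios -1.03 (all) and -0.12 (G1/S). With each cell's own CPM averaged, the ratios were -0.66, -3.34 and 0.14 in fibroblasts, -2.03 (all) and -0.96 (G1/S) in basal keratinocytes, -0.19 (all) and -0.11 (G1/S) in macrophages and -0.50 (all) and -0.08 (G1/S) in vessels. Mcm5 and Uhrf1 in macrophages turned to -0.24 and -0.05.

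Thinned to 2000 UMIs, the member shares in Ctrl and AD were 45.5% and 18.4% in basal keratinocytes, 7.19% and 4.0% in fibroblasts, 11.1% and 5.26% in macrophages, 39.2% and 31.1% in T cells and 10.6% and 8.92% in vessels. They were 3.24% in suprabasal cells and 91.0% in hair matrix of Ctrl. The thinned G2/M shares were 29.3% and 4.33% in basal keratinocytes, 3.57% and 0.0226% in fibroblasts, 2.57% and 0.585% for macrophages, 20% and 11.7% for T cells, and in Ctrl 1.18% in suprabasal cells, 67.9% in hair matrix and 2.50% in vessels.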

Other observations

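Several smaller cell types also held dividing cells. In the outer root sheath and bulge gate, 122 of 218 Ctrl cells (56.0%, 49.1 to 62.7%) and 6 of 29 AD cells (20.7%, 7.99 to 39.7%) had 3 or more G2/M UMIs, at median depths of 11300 and 3837 UMIs and levels of 2092 and 1156 CPM. In melanocytes, the pigment cells that supply the growing hair, 22 of 78 Ctrl cells were over the cut (28.2%, 18.6 to 39.5%). The 43 AD melanocytes had 0 G2/M UMIs at a median of 3511 UMIs, which allows a share over the cut of up to 6.98% by a limit of 3 counts (exact upper bound 8.22%), while their G1/S members stood at 509 CPM against 722 CPM in Ctrl. After thinning, 3 of 66 Ctrl melanocytes stayed over the cut (4.55%).

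Among immune cells, 20 of 39 Ctrl natural killer cells (51.3%) and 3 of 8 AD cells were over the cut, and 28 of 137 (20.4%) and 16 of 122 (13.1%) innate lymphoid cells, with G2/M levels of 662 and 369 CPM. Dendritic cells had near equal shares, 28.0% of 75 and 30.6% of 36, but levels of 620 and 166 CPM at median depths of 8534 and 15322 UMIs. Lymphatic endothelium stood at 3.21% of 156 Ctrl and 0.478% of 209 AD cells. Among the barcodes over the gene limit, 314 of 396 in Ctrl (79.3%) and 140 of 229 in AD (61.1%) had 3 or more G2/M UMIs, at medians of 39443 and 52391 UMIs.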
